A study of Mus musculus with 8 samples.

Results

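The genes examined here encode the proteins of the mitochondrial ribosome, taken as all rows of the deposited table with a symbol made of Mrpl or Mrps, a number and at most 1 further letter. Of 24787 rows, 78 fit this description, 49 named Mrpl for the large subunit and 29 named Mrps for the small subunit. All 78 passed the filter on low values and were tested. Cells of the 4T1 line, from a mouse mammary carcinoma, gave 8 RNA-seq libraries, of which 4 carried a control shRNA (labelled wild type) and 4 an shRNA against Etv5, an ETS family transcription factor (labelled Etv5 knockdown). The column headers carry a single construct name per group, so each group appears to hold 1 shRNA, and no label says that replicates were separate cultures. Every p-value therefore measures the spread between these libraries, which may be technical.

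Mitochondrial ribosomes translate the few messenger RNAs that the mitochondrial genome encodes, all of them for subunits of the respiratory chain and ATP synthase. Their RNAs come from mitochondrial DNA, whereas every protein is encoded in the nucleus, made in the cytosol and imported. Many of the proteins descend from bacterial ribosomal proteins, and others are found only in mitochondria. Promoters of nuclear genes for mitochondrial proteins often hold motifs of the ETS factor GABP, of NRF1 and of YY1.

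Because the depleted factor belongs to the ETS family, the promoters were searched for the ETS core CCGGAAG on both strands. The RefSeq promoter table for GRCm38.p6, with 300 bases per entry from 250 before to 50 after the start, held entries for 69 of the 78 genes, and 26 of these 69 (37.7%) had the core. Among 8977 tested genes with an entry the share was 21.8%, and among all 32851 entries it was 8.86%. The NRF1 core GCATGCG was present in 8 of the 69 genes (11.6%, against 7.62% of tested genes). The YY1 motif AAGATGGCG was also present in 8 (11.6%, against 3.89%). A match describes letters in the window and is not a measured binding site. In 8 genes the ETS core lay within 100 exon-free bases upstream, and 5 of these windows are shown to make the motif and its neighbourhood visible, from RefSeq and 5′ to 3′ on the strand of the gene, with capitals marking the core or its reverse complement. They are the windows of Mrpl43 (chr19:45006443-45006542, minus strand), Mrpl52 (chr14:54426809-54426908, plus), Mrpl58 (chr11:115403652-115403751, plus), Mrps18a (chr17:46110886-46110985, plus) and Mrps22 (chr9:98601680-98601779, minus).
Mrpl43: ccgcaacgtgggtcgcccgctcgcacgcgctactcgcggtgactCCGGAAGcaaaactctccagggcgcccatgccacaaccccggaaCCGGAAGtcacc
Mrpl52: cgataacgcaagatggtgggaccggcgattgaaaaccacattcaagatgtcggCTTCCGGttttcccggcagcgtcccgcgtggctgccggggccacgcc
Mrpl58: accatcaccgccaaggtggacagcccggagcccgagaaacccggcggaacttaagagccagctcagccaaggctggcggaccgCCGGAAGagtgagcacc
Mrps18a: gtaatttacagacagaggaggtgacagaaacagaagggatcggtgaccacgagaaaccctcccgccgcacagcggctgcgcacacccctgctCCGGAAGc
Mrps22: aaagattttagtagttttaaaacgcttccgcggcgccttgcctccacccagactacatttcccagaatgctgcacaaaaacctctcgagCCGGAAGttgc
The Mrpl43 window holds the core at 2 places on the gene's strand, and the Mrpl52 window holds it in reverse complement. In Mrps22 the core begins 11 bases before the start site of the table. These 5 genes belong to both subunits by symbol, and their RNA values are given with the other members.

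The values behave as the coverage of a gene averaged over its bases and scaled for depth, and are called coverage values here. This reading comes from the file headers and the values, and every comparison of levels between genes rests on it. Etv5 itself, the targeted gene, had coverage values of 15.2, 15.1, 11.7 and 14.4 in control libraries 1 to 4 and of 13.0, 11.2, 7.52 and 12.7 in Etv5 shRNA libraries 1 to 4. The groups overlapped through the third control alone, and every other control lay above all 4 Etv5 shRNA libraries. The log2 fold change was -0.33 over 8 libraries (adjusted p = 0.819, limma). It was -0.17 without the third Etv5 shRNA library (adjusted p = 0.422, limma), and Etv5 was called in neither fit. The depletion was thus not resolved in these RNA values, and the groups are named by their labels. Sums over all genes ran from 254792 to 390495 and genes above 0 from 13920 to 15379, with the third Etv5 shRNA library at the highest sum and the lowest gene number. The cells carried the RNA of mammary epithelium: all 8 epithelial markers searched for were tested, with summed values of 1333 to 1811 in the controls and 1358 to 3174 in the Etv5 shRNA libraries. Of 7 leukocyte markers none exceeded 0.316 and Cd3e and Adgre1 were at 0 throughout, of 4 endothelial markers none exceeded 0.0632, and of 5 fibroblast markers Dcn and Lum were at 0 throughout while Pdgfra reached 3.54. In bulk RNA, fewer cells of a type and less RNA per cell cannot be told apart.

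Within the family, levels in control cells spanned 54.7-fold. The highest mean was that of Mrpl13, at 129.9 ± 38.0 (SD, n = 4), followed by Mrpl33 at 76.5 ± 27.2 and Mrpl12 at 71.4 ± 15.3. These last 2 did not differ beyond their spread. The lowest were Mrps23 at 2.37 ± 0.869, Mrpl41 at 4.19 ± 0.778 and Mrpl17 at 4.81 ± 0.705, of which the last 2 also lay within each other's spread. The median control mean was 16.6 for Mrpl and 18.2 for Mrps genes, so the subunits had similar levels per base. The genes lay on 17 chromosomes, with 11 on chromosome 11 and 8 on chromosome 17, and their longest annotated transcripts ran from 488 to 7300 bases. The median coefficient of variation of a member was 19.2% over the 4 controls. It was 45.5% over the 4 Etv5 shRNA libraries and 11.4% without the third of them.

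**Figure D1:**
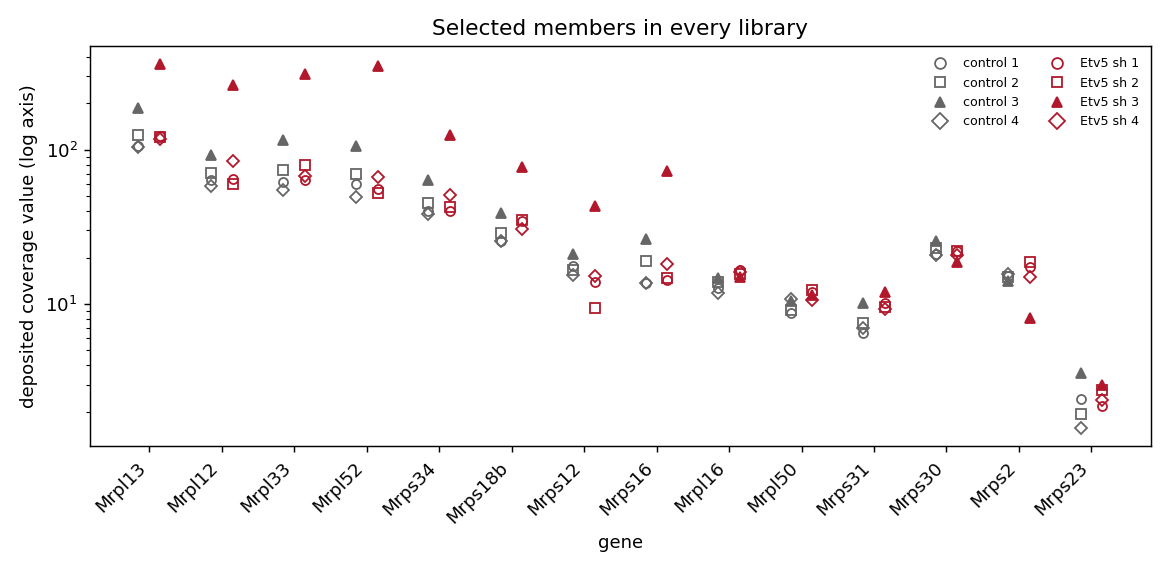
Coverage value (log axis) of 14 mitochondrial ribosomal protein genes in each of the 8 libraries; grey symbols are control and red symbols Etv5 shRNA libraries, and filled triangles mark replicate 3. Replicate 3 of the Etv5 shRNA group lies far above the rest for Mrpl13 (359) and Mrpl52 (348), slightly below the other 3 of its group for Mrpl16 (15.01), and further below them for Mrps2 (8.10).

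Over all 8 libraries no mitochondrial ribosomal protein gene passed the test. With limma on log2(value + 1) and Benjamini-Hochberg adjustment over 11731 tested rows, 0 of 78 members were called at an adjusted p under 0.05, beside 0.494% of all genes (0.00852% higher and 0.486% lower). None reached an unadjusted p under 0.05 either, which 7.09% of all genes did. Smallest was the p of Mrps31, at 0.0515 (adjusted p = 0.713 by limma). The groups did not overlap for 2 members (2.56%), Mrpl16 and Mrpl19, against 9.1% of all genes. Both were higher with Etv5 shRNA, as in 1.52% of all genes, and no member was lower, against 7.58% of all genes.

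Large and small subunit genes had close medians. The fitted log2 fold changes, on the log2(value + 1) scale, had a median of 0.24 for Mrpl and 0.25 for Mrps genes, beside -0.11 for all genes. They ran from -0.19 (Mrps35) to 0.48 (Mrps18b), with 69 above and 9 below 0. Moving Mrps30 and Mrps18a to the large subunit, where their proteins sit, and leaving out Mrps36, whose protein is now counted among the 2-oxoglutarate dehydrogenase subunits, gave medians of 0.24 over 51 and 0.25 over 26 genes. Median-of-ratios scaling moved the median of all genes from -0.11 to 0.02 and that of Mrpl and Mrps to 0.41 and 0.42. Set against all genes, the family median stood 0.36 higher as deposited, 0.39 with that scaling, 0.33 with equal sums and 0.23 with quantile normalisation.

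The intervals were wide over 8 libraries and narrower without the third Etv5 shRNA library. Across all 8 the 95% interval of a member had a median width of 1.20 on the log2 scale, and 27 of 78 reached past a doubling. Without that library the median width was 0.63 and every one of the 78 intervals lay between -1 and 1. Of these, 65 lay within a 1.5-fold change in either direction, and the outermost bounds were -0.87 and 0.61.

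**Figure D2:**
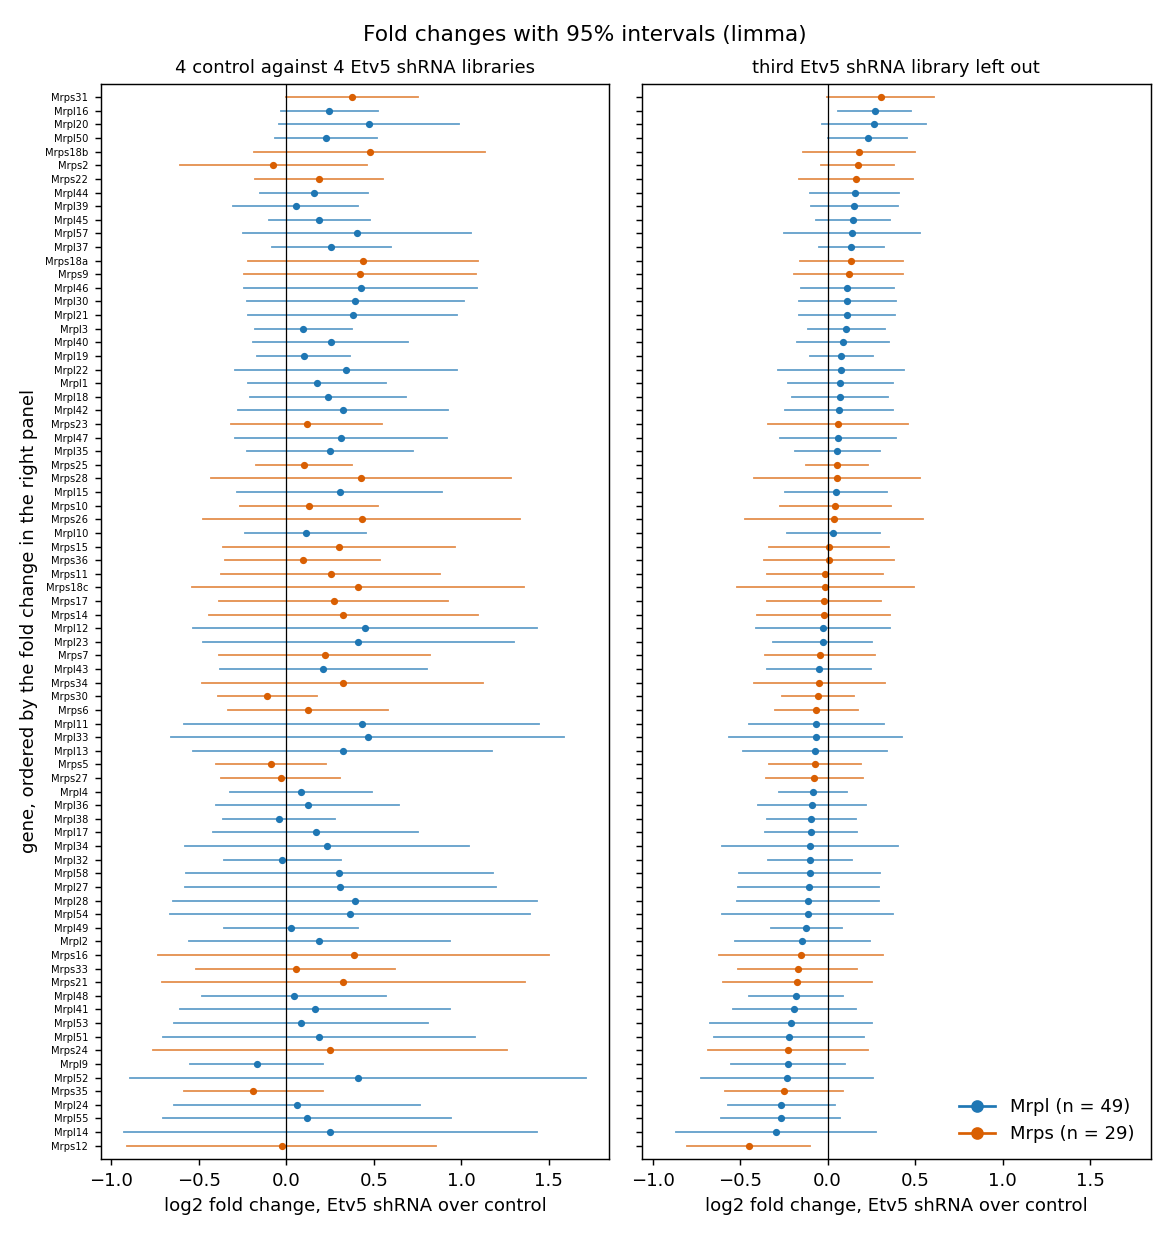
Log2 fold change of each of the 78 genes, Etv5 shRNA over control, with its 95% interval from limma, over all 8 libraries on the left and without the third Etv5 shRNA library on the right; blue marks Mrpl and orange Mrps genes. On the left most points lie right of 0 with wide intervals, while on the right they scatter around 0 between -0.45 and 0.30.

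The excess over 8 libraries was largest in a single library. All 78 members together made up 0.645%, 0.693%, 0.807% and 0.633% of the summed values in control libraries 1 to 4, and 0.681%, 0.676%, 1.20% and 0.733% in Etv5 shRNA libraries 1 to 4. The third Etv5 shRNA library stood apart at 1.20%, and control 3 was the highest of the rest. Of the 78 genes, 63 (80.8%) were highest of all 8 libraries in the third Etv5 shRNA library, beside 22.4% of all genes. Control 3 was the highest control for 75 of 78 (96.2%), beside 38.1% of all genes.

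**Figure D3:**
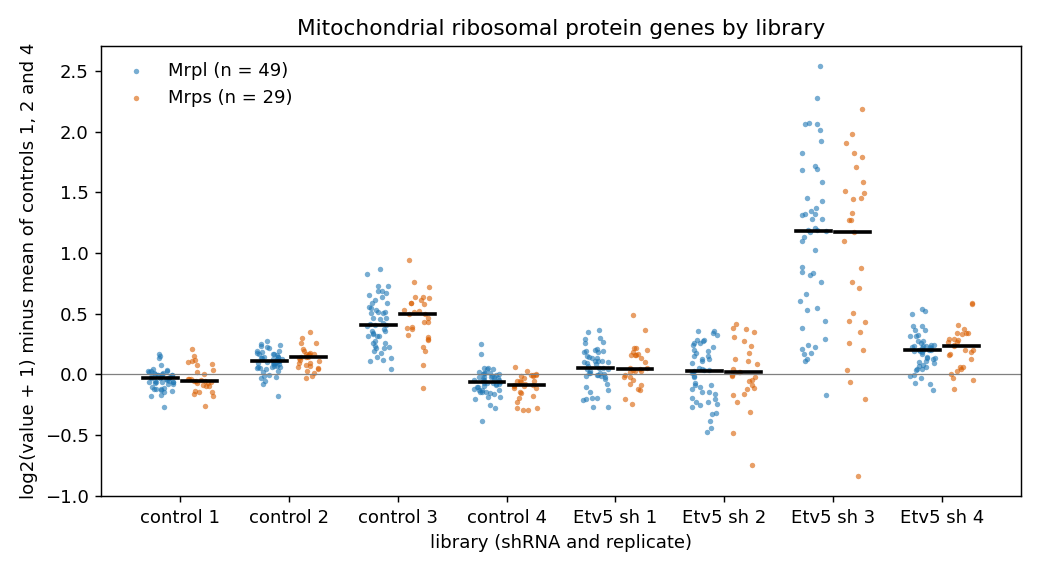
Each point is 1 gene in 1 library, as log2(value + 1) minus the mean of that gene in controls 1, 2 and 4; black bars are medians of the 49 Mrpl (blue) and 29 Mrps (orange) genes. The third Etv5 shRNA library is both highest and most spread, and control 3 is the highest control.

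The excess was uneven among members. Relative to the mean of the other 3 Etv5 shRNA libraries, the value in the third ran from 0.476 times (Mrps2) to 5.97 times (Mrpl52), with a median of 2.17, and 44 genes more than doubled. Mrpl52, a large subunit protein found only in mitochondria, had coverage values of 59.6, 69.7, 105 and 49.4 in the controls and of 55.7, 52.6, 348 and 66.5 with Etv5 shRNA, so that 3 of 4 Etv5 shRNA libraries lay within the control range. Mrps2, a small subunit protein with a bacterial counterpart, had 15.3, 14.9, 14.0 and 15.6 in the controls and 17.4, 18.7, 8.10 and 14.9 with Etv5 shRNA, with the third Etv5 shRNA library the lowest of all 8. On the log2 scale 7 members were not higher in that library, namely Mrpl3, Mrpl16, Mrpl39, Mrpl50, Mrps2, Mrps5 and Mrps30. Mrpl52 and Mrps2 were picked for this contrast after their values were seen.

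Both subunits took part to a like degree by median, and the summed ratio shifted toward Mrpl. The median difference between the third Etv5 shRNA library and its group was 1.04 for Mrpl and 1.07 for Mrps genes (log2). The summed Mrpl over summed Mrps value lay between 1.99 and 2.07 in 7 libraries and at 2.24 in the third Etv5 shRNA library. Members far above their group in Etv5 shRNA 3 tended to be so in control 3: over the 78 members the differences had a Pearson r of 0.764 and a Spearman rho of 0.762. Over all genes that rho was 0.793. Genes within a library share its depth and preparation, so these values describe the libraries and carry no test.

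Genes of 2 other families stood higher in the same libraries. In the third Etv5 shRNA library the median difference from the other 3 was 1.04 for the 78 mitochondrial ribosomal protein genes, 1.86 for 77 cytosolic ribosomal protein genes, 1.58 for 77 nuclear-encoded respiratory chain genes and -0.47 for all genes. In control 3 the medians were 0.43, 0.64, 0.59 and -0.02 in the same order. Within the family the difference was smaller at longer transcripts, with a rho of -0.376 over 78 genes (all genes, -0.595), and had a rho of 0.35 with GC content. Among the 38 members in the middle 50% of the family's lengths the median was 0.82, while the 4741 tested genes of the same lengths had -0.04. With the length trend removed from every library, the 8-library medians were 0.27 for Mrpl and 0.25 for Mrps, beside -0.00 for all genes. The family median then stood 0.26 above that of all genes, against 0.36 as deposited. Length and GC content are those of the longest annotated transcript of any type, which need not be the one expressed. For Mrpl15 (4600 bases) and Mrpl23 (3715 bases) that transcript has 1 exon. Matching or correcting by these lengths may therefore leave part of a length effect in place. The part of length or GC content in the excess was not tested beyond these values.

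**Figure D4:**
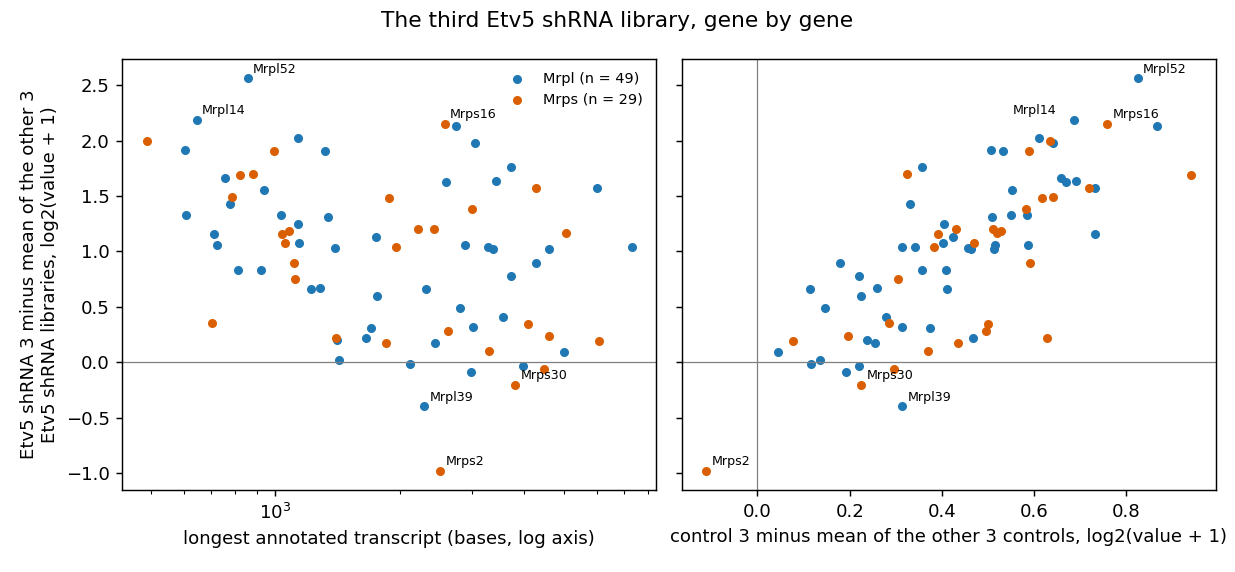
Difference in log2(value + 1) between the third Etv5 shRNA library and the mean of the other 3 of its group for each of 78 genes, against the length of the longest transcript (left, log axis) and against the same difference for control 3 (right). Most genes lie above 0 on both vertical scales, Mrpl52 is the highest and Mrps2 the lowest, and the right panel rises from lower left to upper right.

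**Figure D5:**
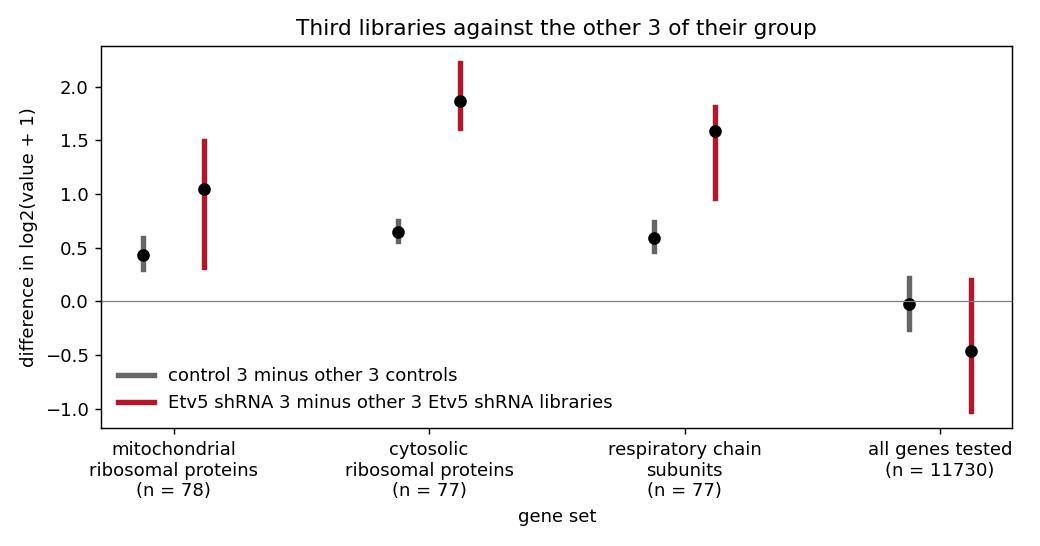
Median (dot) and middle 50% of genes (bar) of the difference between replicate 3 and the other 3 libraries of its group, for 4 sets of genes; all genes are the 11730 distinct symbols tested. The bars of the 3 gene families lie above 0 in replicate 3 of both groups, whereas the median of all genes is -0.02 in control 3 and -0.47 in the third Etv5 shRNA library.

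Without the third Etv5 shRNA library, and with all 4 controls kept, the family medians lay near 0. The median log2 fold change was -0.05 for Mrpl, -0.01 for Mrps and -0.00 for all genes, with 35 members above and 43 below 0. The sign of these medians depended on the processing and on control 3, the highest control for most members. With the length trend removed and control 3 kept, they were 0.04 for Mrpl and 0.01 for Mrps. Replicate 3 of both groups was left out in a setting added after the data were seen. The medians were then 0.10 for Mrpl and 0.11 for Mrps, beside -0.01 for all genes. In that setting limma called 3 of 78 members (3.85%) at an adjusted p under 0.05, beside 8.91% of all genes. With only the third Etv5 shRNA library left out, limma called 0 of 78 members. Of all genes it called 3.14% (1.08% higher and 2.05% lower). In that fit 3 members (3.85%) had an unadjusted p under 0.05, beside 18.8% of all genes. Those 3 were Mrpl16, Mrpl50 and Mrps12. The groups did not overlap for 4 members (5.13%), with Mrpl16 and Mrpl19 higher and Mrpl24 and Mrps12 lower, beside 20.2% of all genes (9.76% higher and 10.4% lower). Also with only that library left out, the cytosolic ribosomal protein genes had a median of -0.25 and the respiratory chain genes of -0.11. None of either was called.

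Among large subunit genes, the groups were separate over all 8 libraries in Mrpl16 and Mrpl19. The Mrpl16 protein lies near the functional core of the subunit. Mrpl16 (chr19:11770391-11774960, plus strand, mm10) had coverage values of 12.6, 13.8, 14.6 and 11.7 in the controls and 16.6, 15.5, 15.01 and 16.04 with Etv5 shRNA. All 4 Etv5 shRNA libraries, the third included, lay above all 4 controls. Its log2 fold change was 0.25 (SE 0.123, adjusted p = 0.769, limma) over 8 libraries and 0.27 (SE 0.0931, adjusted p = 0.158) without the third, and the gene was not called in either. Mrpl50, a mitochondria-specific protein, had 8.74, 9.14, 10.4 and 10.8 against 11.96, 12.3, 11.5 and 10.5, with groups that overlapped, and 0.23 without the third library (adjusted p = 0.262, limma). Mrpl19 differed by little, at 5.25, 5.12, 5.33 and 5.03 against 5.64, 5.61, 5.94 and 5.33. Its groups were separate with the nearest libraries both at 5.33.

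Mrpl20, the counterpart of a bacterial protein that binds early in assembly, had 15.9, 19.96, 22.4 and 16.4 in the controls and 21.1, 20.9, 40.7 and 25.6 with Etv5 shRNA. The groups overlapped through control 3. It was not called with the deposited values (0.27 without the third library, adjusted p = 0.317, limma). It was called when the length trend was removed and the third Etv5 shRNA library left out, at 0.41 (SE 0.0753, adjusted p = 0.0134), where 8.13% of all genes were called.

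The ribosome's stalk proteins were not called. Mrpl12, the stalk protein that contacts translation factors, had 63.7, 70.5, 93.0 and 58.4 in the controls and 64.4, 60.3, 262 and 84.7 with Etv5 shRNA. The 3 Etv5 shRNA libraries other than the third lay within the control range. Mrpl11, at the base of the stalk, had 7.11, 8.05, 11.9 and 6.71 against 7.20, 7.43, 33.9 and 9.02, again with only the third Etv5 shRNA library outside the control range. Their log2 fold changes without that library were -0.03 and -0.06.

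Mrpl13, the most abundant member, had coverage values of 106, 124, 185 and 104 in the controls and of 122, 121, 359 and 117 with Etv5 shRNA. Mrpl33 had 61.7, 73.5, 116 and 55.2 against 63.3, 79.3, 310.0 and 68.0. In both, 3 Etv5 shRNA libraries sat inside the control range and the third far above it. Among the lowest members, Mrpl17 had 4.44, 4.79, 5.80 and 4.21 against 4.35, 3.96, 10.2 and 4.99. Mrpl41 had 3.30, 4.46, 5.11 and 3.88 against 3.21, 2.89, 11.1 and 4.60. There too all other libraries lay below the third Etv5 shRNA library, and the second was the lowest. Without the third library these 4 had log2 fold changes between -0.19 and -0.07, none called.

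Mrpl14, Mrpl24 and Mrpl55 had the most negative large subunit values without the third library, at -0.30, -0.27 and -0.27 (adjusted p = 0.563, 0.334 and 0.378, limma). Mrpl14, which faces the small subunit, had 34.1, 37.2, 50.5 and 23.5 in the controls and 25.6, 22.02, 133 and 40.4 with Etv5 shRNA. Mrpl24 had 51.1, 49.8, 72.0 and 49.9 against 43.7, 43.6, 114 and 49.7. The groups of Mrpl14 overlapped with and without the third library, and those of Mrpl24 were separate without it, with the nearest libraries at 49.8 and 49.7. Mrpl55 had 9.84, 8.69, 14.0 and 9.27 against 7.96, 7.74, 26.6 and 9.51, and its groups overlapped. Mrpl3, near the peptidyl transferase centre, and Mrpl44, which resembles ribonuclease III, varied little: Mrpl3 lay between 26.7 and 34.1 in the controls and between 30.3 and 34.2 with Etv5 shRNA, and Mrpl44 between 11.7 and 14.4 and between 12.9 and 16.8.

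In the small subunit, Mrps12 had the most negative value and Mrps31 the most positive one without the third library. Mrps12, the counterpart of the bacterial decoding centre protein, is on chr7:28739641-28741820 (minus strand). It had coverage values of 17.6, 16.7, 20.97 and 15.4 in the controls and 13.8, 9.44, 43.0 and 15.2 with Etv5 shRNA. Here 3 of 4 Etv5 shRNA libraries lay below every control and the third above all of them. The log2 fold change was -0.03 over 8 libraries and -0.45 without the third (95% interval -0.80 to -0.10, unadjusted p = 0.0173 and adjusted p = 0.160, limma), so the gene was not called.

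Mrps31, a mitochondria-specific protein of the small subunit, had 6.48, 7.48, 10.2 and 6.95 in the controls and 10.2, 9.59, 12.01 and 9.34 with Etv5 shRNA. All Etv5 shRNA libraries lay above controls 1, 2 and 4, and control 3 overlapped them. The log2 fold change was 0.37 over 8 libraries (SE 0.166, adjusted p = 0.713, limma). With replicate 3 of both groups left out, Mrps31 was called higher at 0.43 (adjusted p = 0.0115), together with Mrpl16 at 0.32 (adjusted p = 0.0357) and Mrps18b at 0.31 (adjusted p = 0.0425). These 3 of 78 (3.85%) stand beside 8.91% of all genes called in that setting.

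The bacterial protein S18 has 3 paralogs in mitochondria, none of which was called over 8 libraries or without the third Etv5 shRNA library. Mrps18b and Mrps18c sit in the small subunit and Mrps18a in the large one. Mrps18a had coverage values of 26.9, 31.6, 38.1 and 25.8 in the controls and 32.7, 31.7, 78.2 and 35.6 with Etv5 shRNA. Mrps18b had 25.4, 29.03, 38.9 and 25.6 against 34.6, 34.9, 77.1 and 30.7, and Mrps18c had 18.6, 24.2, 40.7 and 19.8 against 22.8, 24.6, 80.8 and 25.7. In all of them the groups overlapped, control 3 was the highest control, and the third Etv5 shRNA library was highest. Without it the log2 fold changes were 0.13, 0.18 and -0.01, and the difference between paralogs was not tested.

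Mrps7, a protein of the subunit's head, lay between 14.6 and 21.6 in the controls and at 16.98, 14.5, 36.02 and 19.8 with Etv5 shRNA. Mrps16, of the bacterial type, had 13.7, 19.0, 26.5 and 13.6 against 14.4, 14.7, 73.2 and 18.2, and Mrps34, a mitochondria-specific protein, had 40.0, 45.04, 63.4 and 38.3 against 40.4, 42.4, 125 and 50.5. In each the third Etv5 shRNA library was the only one above the control range. Mrps22, Mrps30 and Mrps23 lay no higher there than the highest control. Mrps22 was at 22.3 there, with controls from 14.3 to 22.6, Mrps30 at 18.7, with controls from 20.8 to 25.5, and Mrps23 at 3.00, with controls from 1.58 to 3.57. Mrps36 was at 7.42 there, just above controls of 4.53 to 6.98. None of these 7 genes was called in either comparison by limma, and their log2 fold changes without the third library ran from -0.15 (Mrps16) to 0.16 (Mrps22).

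Members with an ETS core in their promoter differed little from those without. The median log2 fold change was 0.27 for the 26 with the core and 0.23 for the 43 without over 8 libraries, and -0.07 and 0.01 without the third Etv5 shRNA library. The ranges overlapped widely in the latter, from -0.45 to 0.18 with the core and from -0.30 to 0.30 without it. Of the 5 genes whose windows are printed, Mrpl43 had a log2 fold change without the third library of -0.05, Mrpl52 of -0.23, Mrpl58 of -0.10, Mrps18a of 0.13 and Mrps22 of 0.16. No member among them was called.

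Many members share a start region or exons with a neighbour. A protein-coding gene on the opposite strand began within 1000 bases upstream of 23 of 78 members (29.5%), beside 13.2% of 10819 tested protein-coding genes. Mrps12 and Sars2, which encodes the mitochondrial seryl-tRNA synthetase, start 172 bases apart. Sars2 had a log2 fold change without the third library of -0.08 beside -0.45 for Mrps12. Mrpl36 starts 29 bases from Ndufs6, a complex I subunit gene, and Mrps34 29 bases from Eme2.

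Exons of 33 members overlapped those of another gene, 28 of them with a gene on the opposite strand, and 10 members had over 20% of their exon bases overlapped. These 10 were Mrpl53 (88.0%), Mrps34 (77.8%), Mrps25 (69.8%), Mrpl19 (36%), Mrpl43 (33.4%), Mrps18b (30.5%), Mrpl24 (26.3%), Mrps27 (24.2%), Mrpl47 (24.2%) and Mrps18c (23.2%). Whether the coverage was counted by strand is not given in the sources used here, so the values of the 33 overlapping members are uncertain. In 11 members over 10% of all stretches of 50 bases also occurred in another gene, which adds uncertainty for Mrpl53 (78.5%), Mrps34 (38.4%), Mrps36 (36.2%), Mrpl22 (33.4%), Mrpl27 (32.4%), Mrps18b (30.9%), Mrps33 (20.98%), Mrps18c (17.6%), Mrpl41 (13.8%), Mrps21 (13.7%) and Mrps5 (12.4%).

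The wider machinery of mitochondrial translation was also mostly without calls. Over 8 libraries no gene of 6 lists was called by limma: 5 further mitochondrial ribosome proteins, 16 translation factors, 20 mitochondrial tRNA synthetases and related enzymes, 28 assembly factors, 10 genes of mitochondrial transcription and RNA processing, and 8 tested regulators including Nrf1, Gabpa, Yy1 and Myc. At an unadjusted p under 0.05 only the synthetase list had any, with 2 of 20. Leaving out the third Etv5 shRNA library brought 4 calls in these lists, 3 higher and 1 lower, where 1.08% of all genes were called higher and 2.05% lower. Median log2 fold changes of the 6 lists were then between -0.07 and 0.09, beside -0.00 for all genes.

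Gfm1, the elongation factor that moves the mitochondrial ribosome along its messenger, had coverage values of 16.5, 15.96, 16.7 and 17.7 in the controls and 23.8, 21.96, 8.49 and 21.4 with Etv5 shRNA. It was higher in 3 of 4 Etv5 shRNA libraries and lower in the third than in any control, with a log2 fold change of 0.40 without that library (SE 0.0803, adjusted p = 0.0319, limma) and 0.07 with it (adjusted p = 0.938). Mars2, the mitochondrial methionyl-tRNA synthetase, had 3.64, 3.83, 2.54 and 3.70 against 5.69, 5.10, 1.53 and 6.01, and Elac2, which trims the 3′ ends of mitochondrial tRNAs, had 7.29, 7.37, 6.96 and 7.41 against 10.1, 9.41, 5.16 and 9.39. Both followed the order of Gfm1, with 0.58 (adjusted p = 0.0395) for Mars2 and 0.36 (adjusted p = 0.0433) for Elac2 without the third library by limma. Gtpbp6, a GTPase that acts on the large subunit, had 14.0, 14.1, 16.97 and 12.5 against 9.01, 9.29, 25.7 and 11.1. It was lower in 3 libraries and highest in the third, at -0.51 without it (adjusted p = 0.0494, limma), and it lost the call with median-of-ratios scaling (adjusted p = 0.0632). All 4 calls rest on leaving out that library, since over 8 libraries their adjusted p lay between 0.879 and 0.938.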

How the data were processed

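Libraries of 4T1 cells, 4 with control and 4 with Etv5 shRNA, were grouped by sample title. The submitters' processing notes name STAR 2.7.10a and mm10. The authors deposited a signal, which by the headers stems from coverage tracks and behaves as mean coverage per base after depth scaling. How it was averaged, and the read depth, are not stated, so no counting interval is given.

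Rows reaching 0.5 in 4 or more libraries (11731) were tested as log2(value + 1), which understates changes of low genes. The test was limma 3.58.1 with an intensity trend (R 4.3.3), Benjamini-Hochberg adjusted, with a threshold of 0.05. It was also run on simulated data that drew each gene independently, so shifts shared by the genes of a library were not covered. The fit without the third Etv5 shRNA library used the same steps. Lengths and coordinates came from GENCODE mouse release 21 on mm10, and 97.7% of rows had a length. Alternatives were leaving out each library, median-of-ratios scaling, equal sums, quantile normalisation, other filters, a pseudocount of 0.1, a replicate block and removal of the length trend (lowess, span 0.3).

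Members and gene lists were chosen with earlier results of these data known. Named genes were called members and list genes, the 3 highest and 3 lowest members by control mean, the 4 most positive and 4 most negative without the third library, members with a set role, and Etv5.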

Additional observations from a re-analysis of the deposited data

Results flagged for a closer look

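Within each group of 4, the highest and lowest library were compared with the rest by Dixon's ratio, at its 95% critical value, for 31 named genes and 4 family measures. Of the 70 groups so examined 23 passed, and in 21 of them the library was Etv5 shRNA replicate 3. Independent groups would give about 1 in 20, or 3.5. These groups share the same libraries, and some genes were named by their values without Etv5 shRNA replicate 3. The count therefore carries no test. The ratios ran from 0.83 to 0.98.

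Only the named genes were examined in this way, so other members, Mrpl52 among them, could not appear here. Of the genes examined, the large subunit ones that lay far above the other 3 libraries in Etv5 shRNA replicate 3 were Mrpl17 at 10.2, Mrpl12 at 261.8, Mrpl33 at 310.01, Mrpl13 at 358.6, Mrpl14 at 133.04, Mrpl55 at 26.6, Mrpl24 at 114.4 and Mrpl11 at 33.9. The small subunit genes by symbol were Mrps12 at 43.04, Mrps16 at 73.2, Mrps18a at 78.2, Mrps18b at 77.1, Mrps18c at 80.8 and Mrps34 at 125.5. Of genes outside the family, Gtpbp6 lay far above at 25.7, while Gfm1 at 8.49 and Elac2 at 5.16 lay far below. The family measures of that library were also far above those of its group: the family's share of the summed values at 1.20%, the ratio of summed Mrpl to summed Mrps values at 2.24, and the median coverage value of Mrpl genes at 33.9 and of Mrps genes at 41.6.

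In the control group, replicate 3 lay far above the others for Mrpl24, at 72.0, and far below for Mars2, at 2.54. No test bears on what set these libraries apart.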

How the results depend on the processing

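No member was called in any setting except 2. With the length trend removed and the third Etv5 shRNA library left out, 1 was called (Mrpl20), and with replicate 3 of both groups left out, a setting chosen after seeing the data, 3 were called (Mrps31, Mrpl16 and Mrps18b). The Mrpl median of 0.24 ran from -0.047 to 0.34 and the Mrps median from -0.014 to 0.38 when single libraries were left out, the lowest in both being without Etv5 shRNA replicate 3. With median-of-ratios scaling and the third Etv5 shRNA library left out, also chosen after seeing the data, they were -0.038 and -0.0047. With replicate 3 of both groups left out they were 0.096 and 0.11, opposite in sign to the medians without Etv5 shRNA replicate 3 alone. With the length trend removed and the third Etv5 shRNA library left out, they were 0.041 and 0.014, also opposite in sign. All genes called ran from 28 to 368 when single libraries were left out, beside 58 with all of them.

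Signs of single genes, none of them called over 8 libraries, turned as follows (log2 fold changes). Leaving out single libraries gave Mrps23 -0.0022 to 0.27, Mrpl41 -0.19 to 0.36, Mrpl17 -0.094 to 0.30, Mrpl12 -0.025 to 0.67, Mrpl33 -0.069 to 0.69, Mrpl13 -0.071 to 0.50, Mrps12 -0.45 to 0.24, Mrpl14 -0.30 to 0.55, Mrpl55 -0.27 to 0.28, Mrpl24 -0.27 to 0.19, Mrpl11 -0.064 to 0.63, Mrps18c -0.014 to 0.64, Mrps7 -0.043 to 0.38, Mrps16 -0.15 to 0.60, Mrps34 -0.048 to 0.49 and Gfm1 -0.064 to 0.40. Without the third Etv5 shRNA library, with the length trend removed, the turned values were Mrpl41 -0.044, Mrpl17 -0.19, Mrpl33 -0.048, Mrpl13 -0.14, Mrpl14 -0.14, Mrpl55 -0.14, Mrpl24 -0.17, Mrpl11 -0.056 and Mrps16 -0.13; with median-of-ratios scaling, Mrpl41 -0.18, Mrpl17 -0.086, Mrpl12 -0.016, Mrpl33 -0.059, Mrpl13 -0.061, Mrpl14 -0.29, Mrpl55 -0.26, Mrpl24 -0.26, Mrpl11 -0.055, Mrps18c -0.0047, Mrps7 -0.033, Mrps16 -0.14 and Mrps34 -0.039. With replicate 3 of both groups left out they were Mrpl41 -0.11, Mrpl17 -0.016, Mrpl14 -0.12, Mrpl55 -0.13 and Mrpl24 -0.14. Over 8 libraries, median-of-ratios scaling gave Mrps12 0.15 and Mrps30 0.061, equal sums Mrpl24 -0.027 and Gfm1 -0.0031, quantile normalisation Mrpl24 -0.066, and removal of the length trend Mrps30 0.033 and Mrps36 -0.057. The cause of these turns was not tested.

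With a replicate block, limma called 0 members and 51 genes in all (0.435%) at an adjusted p under 0.05. Same-numbered libraries correlated, in their deviations from the group means, at 0.549, 0.092, 0.794 and 0.51, so the numbers were not taken as pairs, and not every library correlated best with its own number. Read depth is unknown, which leaves counting error unmeasured, and p-values rest on 4 or 3 libraries a group.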
